A study of Homo sapiens with 6 samples.

Results

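The widest acetylated stretches of chromatin called in Calu-3 cells were examined in 7 windows of the hg19 genome, each named for the gene it was drawn around: NR2F2, SPTBN1, PDGFC, LRIG3, TMSB4X, BCL2L1 and PMEPA1. The windows were chosen by the measured width of their H3K27ac regions, each holding 1 of the widest of the list, so the widths and H3K27ac levels below describe the choice and are not tested. All intervals of 4 deposited lists that touched a window were taken, which gave 174 of 73341 intervals: 58 of 34638 H3K27ac regions, 90 of 31950 H3K4me1 regions, 4 of 1537 EHF peaks of replicate 1 and 22 of 5216 EHF peaks of replicate 2. The windows span 1410 kb in all.

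Calu-3 is an established human airway epithelial line from a lung adenocarcinoma, and the cells were grown without any treatment named in the labels. Chromatin immunoprecipitation with sequencing (ChIP-seq) was done with an antibody to EHF, a member of the ETS transcription factors that is found in epithelia, in 2 replicates, with 1 library each for H3K4me1 and H3K27ac. Input DNA served as the control for peak calling, 1 input for EHF and another for both marks, and the inputs were not analysed here. All libraries come from 1 cell line, and whether both EHF libraries came from separate cultures is not stated. Depth was 10176290 tags in EHF replicate 1, 8418631 in replicate 2, 12989646 for H3K4me1 and 21426939 for H3K27ac, of which 0.155%, 0.740%, 5.80% and 28.9% lay in called intervals. Each mark has no replicate, so no value of a mark carries a replicate check.

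H3K27ac is an acetyl group on histone H3 that marks active promoters and enhancers, and H3K4me1 is a methyl group found at enhancers and on the shoulders of active promoters. Very long runs of H3K27ac are often found at genes that a cell type transcribes strongly, where many enhancers lie close together. The 7 genes have different roles. NR2F2 (COUP-TFII) is an orphan nuclear receptor that acts as a transcription factor. PDGFC is a platelet-derived growth factor, LRIG3 is a transmembrane protein with leucine-rich repeats and immunoglobulin-like domains, and PMEPA1 is a transmembrane protein induced by TGF-beta that restrains SMAD signalling. SPTBN1 is a spectrin of the membrane skeleton, and TMSB4X (thymosin beta 4) binds monomeric actin. BCL2L1 encodes the survival protein BCL-XL. RNA was not measured in these libraries, and the lists carry no gene names. Gene names below stand for the windows and their regions, and no region was assigned to a gene by annotation.

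Sequences around annotated transcription starts of the genes were taken from RefSeq for GRCh38.p14, which is not the build of the intervals, so the sequences were not placed on the regions and their positions must not be compared with those given below. Of the 7 genes, 6 matched, with 13 annotated starts, and PDGFC had no entry. Each sequence runs from 250 bases before a start to 50 after it. Shown are the start with the most GGAA matches for NR2F2, whose window held the widest H3K27ac region, and for BCL2L1 and PMEPA1, whose widest regions held EHF sites found in both replicates. Capitals mark GGAA, the core that ETS proteins bind, read on either strand (GGAA or TTCC), and the longer ETS site CCGGAAGT (or ACTTCCGG), which contains the core.
NR2F2, chr15:96332315-96332614 (GRCh38.p14), + strand: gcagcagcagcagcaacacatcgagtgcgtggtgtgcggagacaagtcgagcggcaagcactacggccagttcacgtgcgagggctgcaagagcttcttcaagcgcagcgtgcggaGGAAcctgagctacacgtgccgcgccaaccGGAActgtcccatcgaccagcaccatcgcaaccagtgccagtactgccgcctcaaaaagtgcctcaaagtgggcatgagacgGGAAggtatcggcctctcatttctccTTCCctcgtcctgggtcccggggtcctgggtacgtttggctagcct
BCL2L1, chr20:31723914-31724213 (GRCh38.p14), - strand: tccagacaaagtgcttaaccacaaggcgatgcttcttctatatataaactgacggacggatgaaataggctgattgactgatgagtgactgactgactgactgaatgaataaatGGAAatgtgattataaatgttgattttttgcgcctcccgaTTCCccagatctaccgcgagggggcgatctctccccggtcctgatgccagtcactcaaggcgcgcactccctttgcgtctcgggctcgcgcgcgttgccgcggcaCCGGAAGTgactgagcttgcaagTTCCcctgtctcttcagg
PMEPA1, chr20:57690637-57690936 (GRCh38.p14), - strand: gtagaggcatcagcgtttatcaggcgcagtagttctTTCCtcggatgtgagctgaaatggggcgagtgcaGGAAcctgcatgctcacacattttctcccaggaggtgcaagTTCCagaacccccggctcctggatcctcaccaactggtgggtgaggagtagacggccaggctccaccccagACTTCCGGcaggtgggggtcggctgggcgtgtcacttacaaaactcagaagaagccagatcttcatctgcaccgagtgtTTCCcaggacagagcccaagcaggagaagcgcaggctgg
The PMEPA1 start shown is the farthest downstream of its 4 annotated starts. The NR2F2 sequence shown can be read as protein code over most of its length, so its GGAA matches may lie in coding sequence. The NR2F2 sequence holds 4 GGAA matches, the BCL2L1 sequence 4 and the PMEPA1 sequence 5. GGAA is common: 95.5% of the 35116 promoter sequences of this length hold it, with a median of 3 matches. CCGGAAGT was found at 2 of the 13 starts, the BCL2L1 and PMEPA1 ones shown, and in 4.14% of all promoter sequences. CAGGAAGT, another ETS site, was found at 0 of the 13 and in 3.08% of all. These are matches of letters and not binding sites.

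The widest H3K27ac region of each window belonged to the 10 widest of the whole list, at ranks 1, 2, 4, 5, 6, 8 and 9. NR2F2 had the widest of all, 44049 bp at chr15:96859812-96903860. SPTBN1 followed with 37740 bp at chr2:54781360-54819099. PDGFC had 35950 bp at chr4:157858262-157894211, and LRIG3 had 34855 bp at chr12:59302708-59337562. The narrowest of the 7 was within 1.5 times of the widest, a small spread that the choice by width favoured. TMSB4X had 33897 bp at chrX:12988184-13022080, BCL2L1 had 33422 bp at chr20:30278662-30312083, and PMEPA1 had 31386 bp at chr20:56258787-56290172. The median width of all H3K27ac regions was 1370 bp. Width alone did not set the choice of windows: the regions at ranks 3, 7 and 10 were left out, with 37148 bp at chr17:46661249-46698396, 33785 bp at chr12:18391536-18425320 and 30244 bp at chr4:75223786-75254029.

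**Figure D1:**
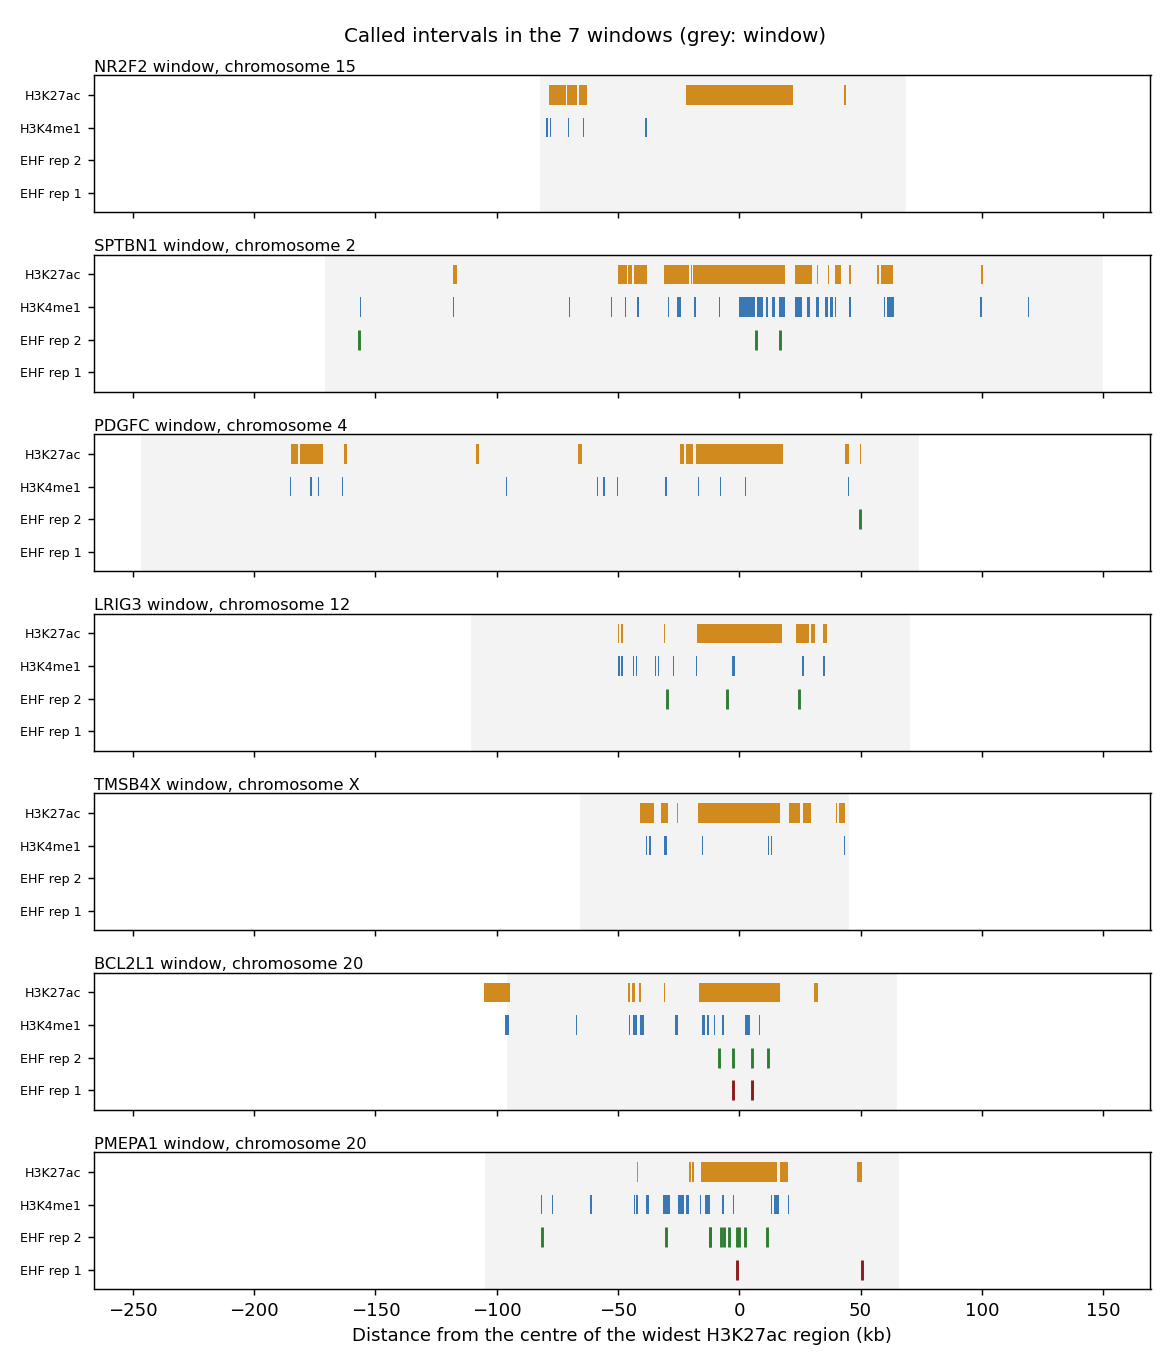
Intervals of the 4 lists in each window, plotted by distance in kb from the centre of the widest H3K27ac region (bars are mark regions, ticks are EHF peaks, grey is the window). The SPTBN1 window holds 26 H3K4me1 regions and the NR2F2 window 5, while EHF ticks gather in the BCL2L1 and PMEPA1 windows.

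The widest region stood out from its surroundings to different degrees. It held 86.6% of the H3K27ac-covered bases of the BCL2L1 window and 81.5% of those of the PMEPA1 window, but 47.7% in the SPTBN1 window, where 14 further regions lay around it. The 51 other H3K27ac regions of the windows were 501 to 10778 bp wide, with a median of 1763 bp. NR2F2 and BCL2L1 had isolated regions, whose nearest H3K27ac neighbours lay 40940 and 21225 bp away for NR2F2 and 13887 and 14225 bp away for BCL2L1. SPTBN1 and PDGFC instead had a neighbour 717 and 1165 bp away on the side of lower coordinates, and PMEPA1 had one 1290 bp away on the other side. All 7 windows together were 26.5% covered by H3K27ac, from 18.5% for PDGFC to 48.5% for TMSB4X.

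How far a stretch counts as one domain depended on the gap allowed between called regions. Joining regions across gaps of up to 12.5 kb left NR2F2 at 44049 bp and BCL2L1 at 33422 bp, since no neighbour was that near. The same joining took SPTBN1 to 113664 bp from 13 regions and TMSB4X to 84557 bp from 8. LRIG3 reached 53475 bp, PDGFC 42455 bp and PMEPA1 40682 bp. By width after joining, SPTBN1 ranked 5 of 21620 and TMSB4X 26, while NR2F2 was at rank 213 and BCL2L1 at rank 464.

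The 7 regions had another order by H3K27ac level than by width, within the narrow range of widths that the choice allowed. The level is given as the authors' score per kb, with an exact 95% Poisson interval for counting error. The score is the number of tags in the interval after scaling the library to 10000000 tags. The median level was 27.9 per kb over all H3K27ac regions and 55.5 over those of at least 5 kb. PMEPA1, the narrowest of the 7, had the highest level at 197 per kb (194 to 201). BCL2L1 had 138 (135 to 140), and NR2F2, the widest, had 98.4 (96.4 to 100.4). Those 3 intervals do not overlap. SPTBN1 had 83.1 (81.1 to 85.1) and LRIG3 77.5 (75.5 to 79.5), also apart from each other. TMSB4X had 60.7 (58.9 to 62.5) and PDGFC 49.5 (47.98 to 51.1), the lowest. By total score in the list of 34638 regions, PMEPA1 ranked 4, BCL2L1 5, NR2F2 7 and SPTBN1 11, against 17 for LRIG3, 34 for TMSB4X and 44 for PDGFC.

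The level of the chromosome went only in part with the level of the region. Among other H3K27ac regions of at least 5 kb, chromosome 20, which carries BCL2L1 and PMEPA1, had the highest median of the chromosomes with such regions, 75.9 per kb over 39 regions. Chromosomes 15, 2 and 12, which carry NR2F2, SPTBN1 and LRIG3, had 56.6, 57.1 and 57.0, though NR2F2 had the highest level among these genes. Chromosomes 4 and X, which carry PDGFC and TMSB4X, had 43.4 and 39.9, though the TMSB4X region lay above the PDGFC region. Relative to its own chromosome, PMEPA1 was 2.60-fold above the median and BCL2L1 1.81-fold. NR2F2 was 1.74-fold, TMSB4X 1.52-fold, SPTBN1 1.46-fold, LRIG3 1.36-fold and PDGFC 1.14-fold above it. The H3K4me1 list had a like order, with a median of 26.5 per kb on chromosome 20 and 19.96 on chromosomes 4 and X. The part of the chromosome's level in these differences was not tested.

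**Figure D2:**
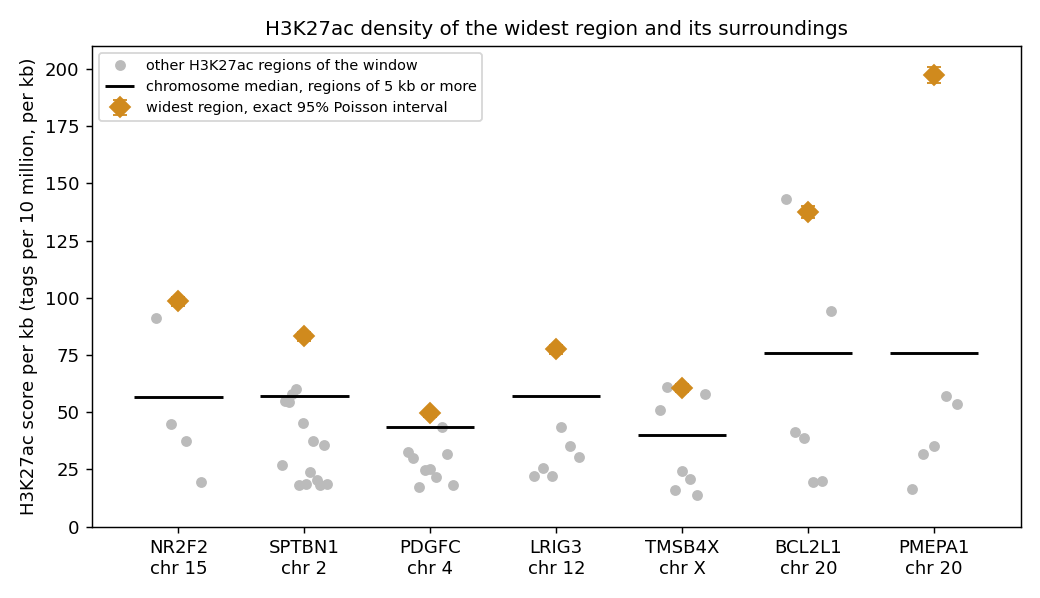
H3K27ac score per kb of the widest region of each window (diamonds, bars are exact 95% Poisson intervals), of the other H3K27ac regions of the window (grey) and the median of the chromosome's other regions of at least 5 kb (line). PMEPA1 at 197 and BCL2L1 at 138 stand highest, and PDGFC at 49.5 lies close to its chromosome's 43.4.

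Inside a window, the widest region also had the highest score per kb for NR2F2, SPTBN1, PDGFC, LRIG3 and PMEPA1. In the NR2F2 window the other 4 regions had 19.6 to 91.1 per kb, and in the PMEPA1 window the other 5 had 16.5 to 57.0. BCL2L1 was an exception, where a region of 10778 bp that runs over the window's edge at chr20:30189955-30200732 had 143 per kb, with a counting interval that overlaps that of the widest region. TMSB4X was another, where a region of 2891 bp at chrX:12972924-12975814 had 60.9 per kb, level with 60.7 in the widest region.

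H3K4me1, which the rule for the windows does not name, differed widely among the 7 regions. It was called inside 6 of the 7, against 34.5% of all H3K27ac regions and 78.1% of the 32 other regions of at least 20 kb. Those 32 were mostly narrower than the 7, with a median width of 24132 bp beside 34855 bp. The widest regions held 26 H3K4me1 regions, which covered 11.8% of their bases. SPTBN1 alone contributed 48.5% of that length, and without it the share was 7.15%. Over the whole list, 15.3% of H3K27ac bases were also in H3K4me1.

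The widest region of the NR2F2 window had no H3K4me1 call anywhere in its 44049 bp. The nearest H3K4me1 regions ended 16185 bp before it and began 54707 bp after it. The window's 5 H3K4me1 regions all lay on the side of lower coordinates, had scores of 12 to 15, and the widest of them was 641 bp at chr15:96842986-96843626. Of the 5, 3 lay within the smaller H3K27ac regions there. A missing call means only that the caller's thresholds were not met.

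The widest regions of the PDGFC and LRIG3 windows had little H3K4me1 and that of the PMEPA1 window more. The PDGFC region held 3 H3K4me1 regions of the minimum width, 501 bp, which covered 4.18% of it. The window's widest H3K4me1 region, 769 bp at chr4:157712259-157713027, lay outside it. The LRIG3 region held 1, of 1135 bp at chr12:59317149-59318283, which covered 3.26%, and another H3K4me1 region stopped 4 bp short of its lower end. The PMEPA1 region held 6, covering 17.1%. In that window the widest H3K4me1 region, 2749 bp at chr20:56243096-56245844 with a score of 81, lay outside H3K27ac, as did 8 of the window's 16 H3K4me1 regions.

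The SPTBN1 and TMSB4X windows differed from each other. SPTBN1 had the most H3K4me1 of the 7, with 7 regions covering 38.1% of the widest H3K27ac region, among them the widest of any window, 6668 bp at chr2:54799999-54806666 with a score of 162. Of the 34638 H3K27ac regions, 1 held more H3K4me1 regions than this one. Cut into 3 equal parts, it had 1002 bp of H3K4me1 in the part of lowest coordinates, then 6521 and 6840 bp. Further H3K4me1 regions followed from 4057 bp past the upper end. TMSB4X had 3 H3K4me1 regions of 501 bp in its widest region, covering 4.43%, and left 26558 bp in a row without a call. All 7 H3K4me1 regions of the TMSB4X window lay in H3K27ac, the widest being 1300 bp at chrX:12973978-12975277.

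The BCL2L1 window had 6 H3K4me1 regions in its widest H3K27ac region, covering 17.3%. They leaned to the lower end, with 3377, 1890 and 501 bp in the 3 equal parts. The widest was 1890 bp at chr20:30297819-30299708, with a score of 89. Beyond the upper end of the H3K27ac region no H3K4me1 region was called for 100138 bp.

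**Figure D3:**
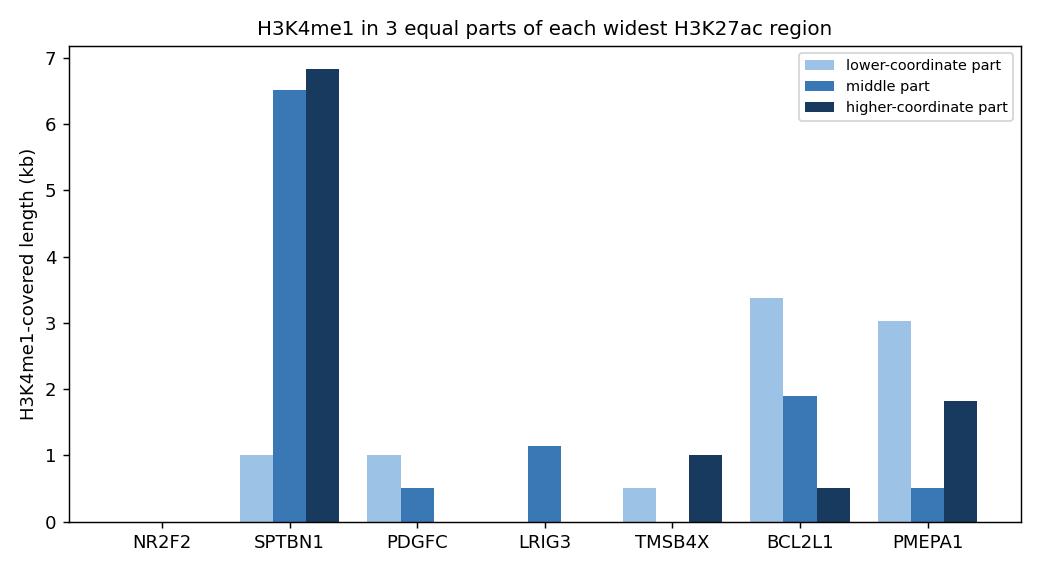
Length covered by H3K4me1, in kb, in 3 equal parts of each widest H3K27ac region, ordered by coordinate. SPTBN1 carries 6521 and 6840 bp in the middle and upper parts, BCL2L1 and PMEPA1 carry most in the lower part, and NR2F2 has none.

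Over whole windows, 60 of the 90 H3K4me1 regions overlapped H3K27ac, or 66.7% (exact 95% binomial interval 55.9% to 76.3%), against 45.2% of all H3K4me1 regions. The windows were chosen for H3K27ac, so a share above that of the list is built into the choice. The share was 7 of 7 for TMSB4X, 10 of 12 for BCL2L1, 20 of 26 for SPTBN1 and 3 of 5 for NR2F2. It was 7 of 13 for PDGFC, 8 of 16 for PMEPA1 and 5 of 11 for LRIG3. Most H3K4me1 regions were small, with 49 of the 90 at the minimum width of 501 bp. That minimum was also the median width over the whole list, so small regions were not particular to the windows. The median score per kb of the 90 was 24.0, beside 23.2 over the list.

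EHF, which that rule does not name either, was called mostly in the 2 chromosome 20 windows. Replicate 2 had 11 peaks in the PMEPA1 window, 4 in BCL2L1, 3 in SPTBN1, 3 in LRIG3 and 1 in PDGFC. It had 0 in NR2F2 and 0 in TMSB4X. Replicate 1 had 2 peaks in BCL2L1 and 2 in PMEPA1, and 0 in the other 5 windows. Inside the widest regions, replicate 2 had 9 peaks for PMEPA1, 4 for BCL2L1, 2 for SPTBN1 and 1 for LRIG3. Thus 4 of the 7 held a replicate 2 peak, against 8.99% of all H3K27ac regions and 62.5% of the 32 other regions of at least 20 kb. Chromosome 20 had 34.9 replicate 2 peaks per 100 H3K27ac regions outside the windows, against 14.1 on chromosome 15 and 6.04 on the X chromosome. These peak counts include the peaks of the windows. The part of the chromosome in the counts was not tested.

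PMEPA1 had more replicate 2 peaks than any other H3K27ac region in the list, where the most outside the windows was 4. That is 2.87 per 10 kb, beside at most 1.95 in the other regions of at least 20 kb. The 9 peaks lay 3.49 to 27.3 kb from the lower end of the region, with neighbours 319 to 9275 bp apart. The highest, at chr20:56270159-56270283, had a score of 26 (exact 95% Poisson interval 16.4 to 39.6). It had no partner in replicate 1. The other 8 had scores of 11 to 23.

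One of the PMEPA1 peaks was found in both replicates, at chr20:56273309-56273459. Its score was 11 in replicate 1 (5.40 to 19.3) and 23 in replicate 2 (13.6 to 35.2), so the counting intervals overlap. The peak centres were 2 bp apart. The site lay 14.6 kb from the lower end, near the middle of the region, and 872 bp from the nearest H3K4me1 region.

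BCL2L1 had the strongest EHF site of the 7 windows, at chr20:30292531-30292689. Its score was 25 in replicate 1 (15.9 to 36.3), rank 11 of 1537, and 39 in replicate 2 (26.98 to 55.05), rank 66 of 5216. A second shared site at chr20:30300576-30300749 scored 10 in replicate 1 (4.71 to 18.1) and 13 in replicate 2 (6.52 to 23.4). For both sites the intervals of the replicates overlap. Only 6 of the 34638 H3K27ac regions held 2 or more shared sites. The remaining replicate 2 peaks of this region scored 21 and 14, and none of the 4 overlapped H3K4me1. They lay between or beyond the H3K4me1 regions, with centres 958 to 3708 bp away from them. H3K4me1 covered 17.3% of this H3K27ac region, and over the list 7.98% of replicate 2 peaks overlapped H3K4me1.

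**Figure D4:**
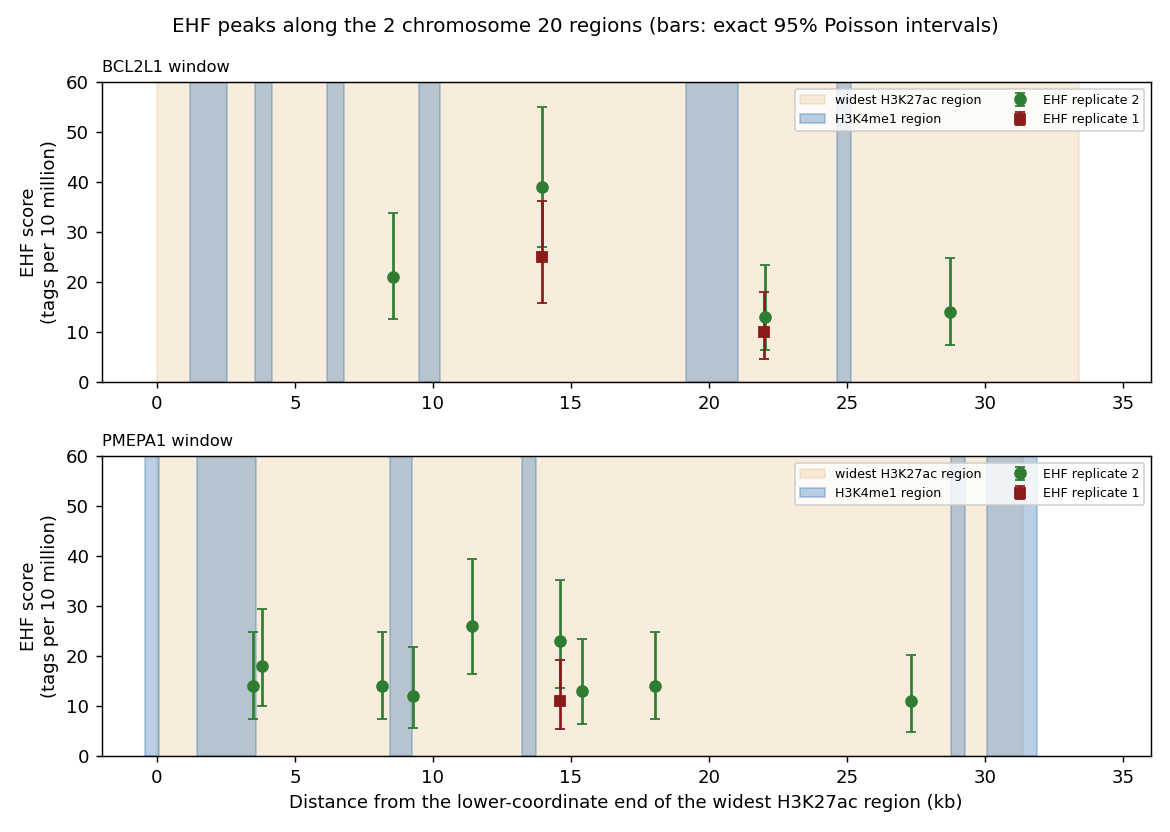
EHF scores (tags per 10000000, exact 95% Poisson intervals) along the widest H3K27ac regions of the BCL2L1 and PMEPA1 windows, by distance in kb from the lower-coordinate end, with H3K4me1 regions in blue. The shared sites score 25 and 39, 10 and 13, and 11 and 23 in replicates 1 and 2, and most peaks fall outside the blue bands. Over the whole lists, 10.1% of replicate 1 peaks and 7.98% of replicate 2 peaks overlapped H3K4me1.

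Outside chromosome 20, EHF peaks were single calls of replicate 2. SPTBN1 had peaks with scores of 17 and 12 in its widest region, at chr2:54807199-54807323 and chr2:54816829-54816953, both in the part with dense H3K4me1. The latter overlapped an H3K4me1 region and the former lay 443 bp from one. LRIG3 had a peak with a score of 13 in its widest region and one with a score of 20 in the next H3K27ac region, at chr12:59344659-59344783. The single PDGFC peak, at chr4:157925831-157925955 with a score of 10, had its centre 111 bp from a small H3K27ac region. The remaining peaks lay outside H3K27ac, a LRIG3 peak with a score of 14 centred 613 bp from it and a SPTBN1 peak with a score of 8 centred 38605 bp from it.

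In all, 3 of the 4 replicate 1 peaks were found in replicate 2, or 75% (exact 95% interval 19.4% to 99.4%), against 50% over the list. From the other side, 3 of the 22 replicate 2 peaks were found in replicate 1, or 13.6% (2.91% to 34.9%), against 14.7%. Both intervals include the share of the list. The shared sites lay in the widest region of 2 of the 7 windows. Over the list, 1.71% of all H3K27ac regions and 18.8% of the other regions of at least 20 kb held one.

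Counting shared sites once, 17 of the 23 EHF sites overlapped H3K27ac, or 73.9% (51.6% to 89.8%), against 61.3% over both lists. By replicate, 3 of 4 peaks of replicate 1 and 17 of 22 of replicate 2 overlapped H3K27ac, against 60.8% and 63.8% of the lists. The windows were chosen for H3K27ac, so shares above those of the lists are favoured by the choice. H3K4me1 was overlapped by 5 of the 23 sites, and 4 were in neither mark. All 5 were peaks of replicate 2, so 5 of its 22 peaks (22.7%, 7.82% to 45.4%) overlapped H3K4me1, against 7.98% of the list. For replicate 1 it was 0 of 4 (upper limit 60.2%), against 10.1%. Of the 5, only the SPTBN1 peak at chr2:54816829-54816953 lay outside the PMEPA1 window, which held 11 of the 22 replicate 2 peaks. Of the 6 sites outside H3K27ac, 2 overlapped H3K4me1, both in the PMEPA1 window. The site at chr20:56244028-56244152, with a score of 10, lay inside an H3K4me1 region. The site at chr20:56193232-56193356, with a score of 19, touched only the edge of one, and its centre lay 49 bp outside it. The only replicate 1 peak without a partner, chr20:56325177-56325327 with a score of 8, was centred 226 bp from H3K27ac. In the widest regions, 3 of the 16 EHF sites overlapped H3K4me1, and for 13 of the 16 the distance from the centre to H3K4me1 was at most 2000 bp. Of those 13, 8 lay in the PMEPA1 region. The share of all EHF peaks that near H3K4me1 was not computed, so the count has no background beside it. The counts of sites in neither mark, and in H3K4me1 outside H3K27ac, have no background beside them either.

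Beside the 32 other H3K27ac regions of at least 20 kb, the 7 covered much of the same range. Their median level was 83.1 per kb, beside 62.9. PMEPA1 lay above all 32 and BCL2L1 below 2 of them, while PDGFC lay below 27. The median share of bases in H3K4me1 was 4.43%, beside 8.87%, and SPTBN1 was exceeded by 2 of the 32. NR2F2 shared its lack of H3K4me1 with 7 of the 32. The median number of replicate 2 EHF peaks was 1 in both groups, and replicate 1 had a peak in 2 of the 7 and in 6 of the 32. These are descriptions of 1 library per mark, with no test of the difference.

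**Figure D5:**
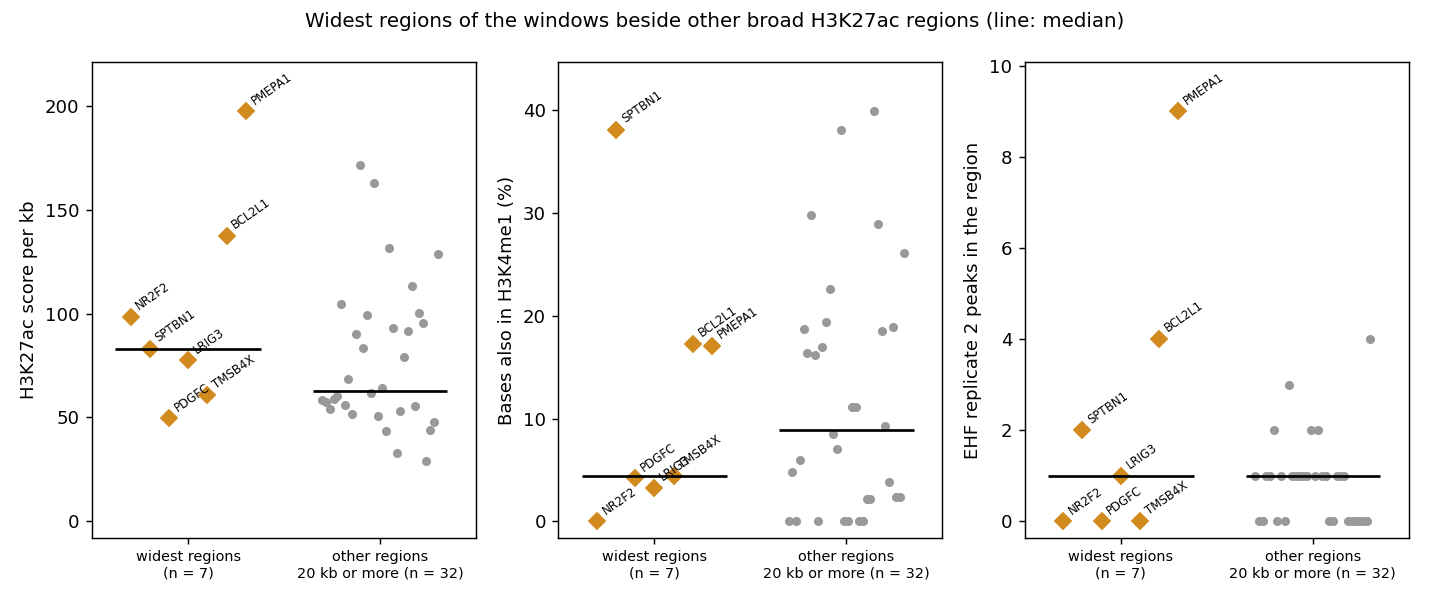
H3K27ac score per kb, percentage of bases in H3K4me1 and number of EHF replicate 2 peaks, with the medians as lines. Diamonds are the widest region of each of the 7 windows, and grey points are 32 other H3K27ac regions of at least 20 kb. PMEPA1 lies above every grey point for level and EHF peaks, and SPTBN1 near the top for H3K4me1.

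By gene order in the RefSeq table of GRCh38.p14, NR2F2 lies between the protein-coding genes MCTP2 and ARRDC4, SPTBN1 between CIMIP6 and EML6, and PDGFC between CTSO and GLRB. TMSB4X lies between TLR8 and FAM9C, BCL2L1 between COX4I2 and TPX2, and PMEPA1 between ZBP1 and CIMIP1. SLC16A7 follows LRIG3. Order says nothing of distance, and which exons or introns lie under each region was not analysed here.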

How the data were processed

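The submitters' processing notes name hg19, Bowtie 1.0.0 and HOMER 1.2. Per the file headers, the authors called each library alone with HOMER findPeaks, with its factor setting (EHF) or histone setting (both marks), against input, with a false discovery rate of 0.01, 4-fold over input and over the surrounding 10 kb, and a Poisson p of 1e-04 for each. Windows of 500 bp were stitched into mark regions, which sets their width. The deposited score is, per the file headers, a tag count the authors scaled to 10000000 tags. It is rounded and not corrected for input. Low EHF scores rest on few tags and are imprecise.

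Comparisons were made in Python 3.11.15 with scipy 1.17.1, pandas 2.3.3 and numpy 2.4.6, and plots with matplotlib 3.10.9. Overlap meant at least 1 bp. Shares have exact (Clopper-Pearson) 95% binomial intervals, and scores have exact Poisson intervals from the tags they stand for. Both cover counting error only, because amplified tags and neighbouring intervals are not independent. The overlap code was tested on simulated data. No test between groups was made, since each mark has 1 library. Named in the text are the widest region of each mark per window, the shared EHF sites and the highest EHF peaks, by a written rule, and further intervals that were chosen after their values were seen. The windows, members and lists were chosen with earlier results of these data known. No hg19 genome or annotation was used here.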

Additional observations from a re-analysis of the deposited data

How the results depend on the processing

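Of 36 alternative values, 22 stayed within the counting interval of the main value or, for counts, within 1.5 times of it, and 14 moved. The widest region held H3K4me1 in 6 of the 7 windows, and this count did not move under any alternative run for it. Joining H3K27ac regions across gaps of up to 1000 bp gave 27.1% coverage of the windows and 14.2% of H3K27ac bases also in H3K4me1, beside 26.5% and 14.5%. It left 5 of the 7 among the 10 widest. Gaps of up to 12.5 kb gave 34.8% coverage and left 1 of the 7 among the 10 widest. Ranking by score placed 3 of the 7 among the top 10, and ranking by score per kb among regions of at least 5 kb placed 1. With only H3K27ac regions at or above the median score per kb, coverage was 24.7% and the share of bases also in H3K4me1 14.3%. With only H3K4me1 regions at or above the median, that share was 10.1%, and 78% of the H3K4me1 regions lay in H3K27ac. Windows trimmed to the widest region and 20 kb on each side gave 57.3% coverage and 13.02% of H3K27ac bases in H3K4me1. Of EHF peaks with a score of at least 12, replicate 1 had 1 in the windows and 1 site was shared, so that the shared sites with scores of 10 and 11 in replicate 1 rest on low counts. Without either EHF replicate, 75% to 77.3% of EHF peaks lay in H3K27ac. The alternatives for base coverage have very narrow counting intervals, since bases are not independent. No paired analysis was possible because only EHF has more than 1 library and no fit between groups was made.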
